A study of Mus musculus with 12 samples.

Results

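The transcripts described here are those of the mouse mitochondrial genome in round spermatids, the haploid germ cells that follow meiosis. The members were all genes in the deposited expression table whose symbols begin with mt-, and no measured value entered that choice. They number 33 of the 28643 gene symbols kept, and comprise 13 mRNAs, 2 rRNAs and 18 tRNAs, which are treated apart. All 33 mapped to the mitochondrial chromosome in the GENCODE M21 annotation of GRCm38. That annotation holds 37 mitochondrial genes, and mt-Td, mt-Tk, mt-Th and mt-Ts2 were not analysed here.

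The mitochondrial genome is a small circle transcribed from both strands into long precursors, from which the tRNAs are cut out and thereby release most of the mRNAs and rRNAs. Its mRNAs encode core subunits of respiratory complexes I, III and IV and of the ATP synthase (complex V), and the organelle's own ribosomes translate them. All other subunits are encoded in the nucleus and made on cytosolic ribosomes. Spermatids keep mitochondria that are later arranged along the sperm midpiece.

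The 12 libraries form 4 groups of 3, male C57BL/6 mice of 8 weeks being the source. A Cas9 frameshift in exon 6 of Igf2bp3, an RNA-binding protein gene, was either heterozygous (Igf2bp3+/-, the control, labelled WT in the table) or homozygous (Igf2bp3-/-). The controls thus also carry 1 mutant allele, and per the study's methods the knockout males were chosen for impaired fertility. Round spermatids were sorted in cycloheximide, which holds ribosomes on mRNA. A part of each extract gave RNA-seq and the remainder was spun through a sucrose gradient. Fractions with 4 or more ribosomes gave the RNC-seq library, that is, RNA in ribosome complexes. The difference between the assays is called polysome loading here. A mitochondrial mRNA is read by mitochondrial ribosomes, so for these genes it measures recovery in the heavy fractions and not cytosolic translation.

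The values are FPKM, fragments scaled to transcript length and to the mapped fragments of the library, and no read totals were used here. From the steps between low values, depth relative to Igf2bp3-/- RNA-seq replicate 1 was 0.38 to 0.58 in the other 11 libraries. The frameshift leaves the Igf2bp3 transcript in place, and its RNA-seq FPKM (33.4 to 38.6 in Igf2bp3+/- and 31.4 to 32.5 in Igf2bp3-/-) does not check the labels. The 8 round spermatid markers summed to 1100 to 1241 FPKM in Igf2bp3+/- and 1435 to 1644 in Igf2bp3-/- RNA-seq, and to 1553 to 1904 and 1924 to 2217 in RNC-seq, so they too were higher in Igf2bp3-/-. All 8 had a higher mean in Igf2bp3-/- RNA-seq (median log2 difference 0.38), and 0 passed the adjusted test. Leydig cell markers summed to 14.6 to 21.5 FPKM in Igf2bp3+/- and 46.4 to 52.9 in Igf2bp3-/- RNA-seq, and to 6.23 to 13.9 and 50.4 to 100 in RNC-seq. The sums of Sertoli markers (4.76 to 5.94 against 9.25 to 9.59 in RNA-seq) and macrophage or blood markers (7.13 to 7.61 against 14.0 to 15.8) were also higher in Igf2bp3-/-. Of 6 Sertoli markers tested in RNA-seq, 4 had a log2 difference above 0 and 2 below. Peritubular markers overlapped in RNA-seq, at 1.55 to 1.73 against 1.05 to 1.60 FPKM, with 3 of 4 tested below 0. In RNC-seq they summed to 0.783 to 1.18 against 1.32 to 2.09. Of the 7 Leydig genes, 1 was listed at 0 in Igf2bp3+/- RNA-seq, and all other genes of these lists were above 0 in each group. The part of these marker differences in the genotype differences below was not tested. In bulk samples, fewer cells of a type and less RNA per cell cannot be told apart. Nothing in the labels ties a library to a single animal, so p-values measure the spread between these samples.

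Nuclear copies of mitochondrial sequence can attract the same reads as the members, which was not tested here, and sequences are shown for those set beside the results below. A retained-intron transcript of Cep295, a nuclear gene for a centriole protein, holds stretches resembling 9 members, within chr9:15319139-15322086 (GRCm38, minus-strand gene). These are mt-Rnr2, mt-Tl1, mt-Nd1, mt-Nd2, mt-Ta, mt-Tn, mt-Tc, mt-Ty and mt-Co1, in the order in which they lie on the mitochondrial genome. mt-Ti, mt-Tq, mt-Tm and mt-Tw, which lie among them there, gave no match at the settings used. The mRNA and rRNA stretches were 74.1% to 77.9% identical, and the tRNA stretches 84.1% to 93.5%. Of the 18 tRNAs, 5 had such a stretch. The lines below give the mitochondrial leucine tRNA mt-Tl1 (chrM:2676-2737, plus strand, 62 bases) and the asparagine tRNA mt-Tn (chrM:5089-5159, minus strand, 71 bases) beside their counterparts within Cep295 (chr9:15319782-15319843, plus strand, and chr9:15321394-15321464, minus strand). Capitals mark the bases that differ, 4 in the first pair and 6 in the second, and all sequences are from the GENCODE M21 transcripts.
mt-Tl1: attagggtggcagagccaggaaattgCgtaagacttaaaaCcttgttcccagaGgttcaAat
Cep295: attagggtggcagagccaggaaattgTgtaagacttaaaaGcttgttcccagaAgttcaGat
mt-Tn: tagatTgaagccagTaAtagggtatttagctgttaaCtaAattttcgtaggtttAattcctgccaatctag
Cep295: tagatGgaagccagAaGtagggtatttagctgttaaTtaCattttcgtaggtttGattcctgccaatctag

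A group of pseudogenes on chromosome 1 copies 6 of the mRNAs still more closely. Gm10925 was identical to mt-Atp6, Gm28661 to mt-Co2, Gm28437 to mt-Co3, Gm10222 to mt-Nd4l and Gm28439 to the matched 63.6% of mt-Nd4. Gm28438 matched mt-Nd3 at 99.7%, and its difference is shown in capitals in a stretch of 33 bases from mt-Nd3 (chrM:9459-9491, plus strand) and from Gm28438 (chr1:24613087-24613119, minus strand).
mt-Nd3: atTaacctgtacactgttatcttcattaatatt
Gm28438: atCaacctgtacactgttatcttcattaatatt

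For some members a large part of the FPKM was listed under the copies. Of the summed FPKM of member and copies over the 12 libraries, the copies held 47.2% for mt-Atp6, 41.8% for mt-Co3, 41.5% for mt-Nd4l, 34.5% for mt-Co2 and 13.7% for mt-Nd3. They held 1.36% for mt-Nd4 and 0.45% for mt-Co1, whose copy Gm13340 lies on chromosome 2 and is 97.6% identical. Levels of the 5 members first named are therefore uncertain, and each of their results was also computed with the copies added.

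Mitochondrial transcripts made up a small share of the RNA-seq libraries. Their summed FPKM came to 0.163%, 0.163% and 0.134% of all FPKM in Igf2bp3+/- RNA-seq and to 0.106%, 0.120% and 0.109% in Igf2bp3-/- RNA-seq. In RNC-seq the shares were 1.38%, 0.660% and 1.37% in Igf2bp3+/- and 0.546%, 0.628% and 1.19% in Igf2bp3-/-. Every RNC-seq library lay above every RNA-seq library. Within RNA-seq all 3 Igf2bp3+/- libraries lay above all 3 Igf2bp3-/- libraries, whereas within RNC-seq the genotypes overlapped. The RNA-seq separation held for the rRNAs (0.102%, 0.106% and 0.0906% against 0.0683%, 0.0798% and 0.0677%) and for the tRNAs. The mRNAs alone overlapped, at 0.0537%, 0.0475% and 0.0364% in Igf2bp3+/- and 0.0364%, 0.0392% and 0.0409% in Igf2bp3-/-. CT010467.1, a nuclear locus annotated as rRNA, alone took 5.68% to 13.3% of RNA-seq and 8.14% to 19.4% of RNC-seq FPKM.

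**Figure D1:**
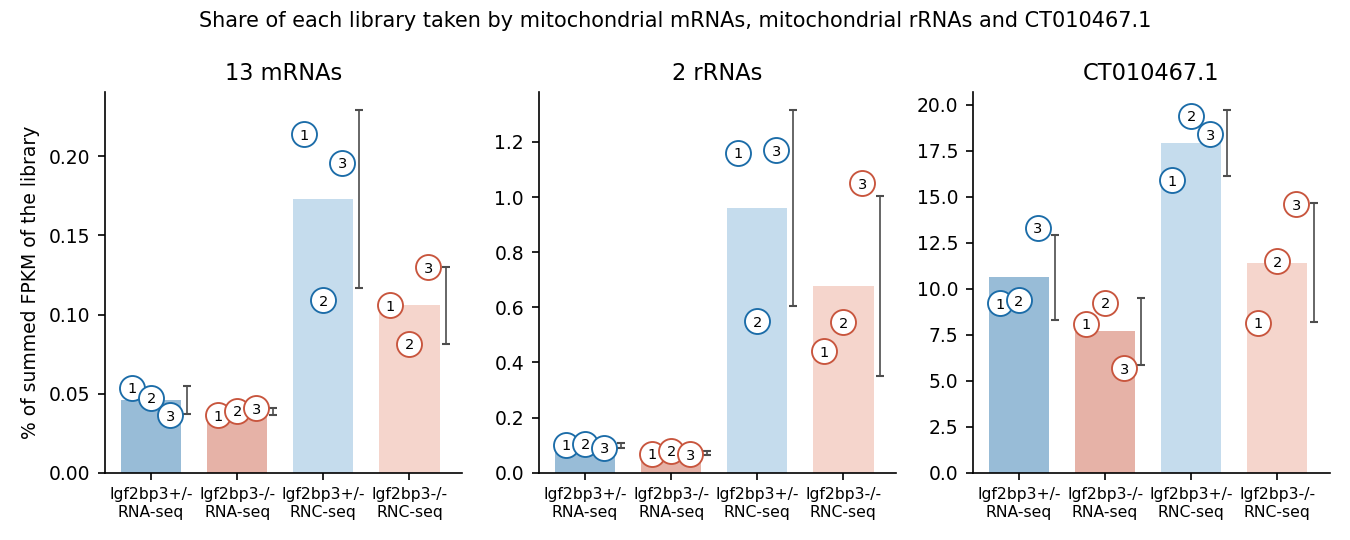
Percent of each library's summed FPKM taken by the 13 mitochondrial mRNAs, the 2 mitochondrial rRNAs and CT010467.1, on separate linear axes, with numbered points for replicates, bars for the group mean and brackets for the SD (n = 3). The mRNA and rRNA points of RNC-seq lie above all RNA-seq points, and replicate 2 is the lowest Igf2bp3+/- RNC-seq library in both.

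Levels differed widely between members, although the mRNAs come from shared precursors. The 16S rRNA mt-Rnr2 (chrM:1094-2675, plus strand) headed the order in Igf2bp3+/- RNA-seq at 448 ± 43.1 FPKM (SD, n = 3). It was followed by mt-Co1, the catalytic subunit of complex IV, at 104 ± 15.0, and the 12S rRNA mt-Rnr1 (chrM:70-1024, plus strand) stood at 20.3 ± 6.02. Per the labels the RNA was poly(A)-selected, so the rRNA values are not levels of total rRNA. Both neighbouring steps from mt-Rnr2 to mt-Co1 and from mt-Co1 to mt-Nd1 exceeded the spread, since no libraries overlapped. The complex I subunit mt-Nd1 (36.5 ± 8.05), cytochrome b mt-Cytb (28.1 ± 6.32) and mt-Rnr1 each overlapped the next in order, the last of them mt-Nd5 (17.7 ± 3.15), which lay apart from mt-Nd4 (8.64 ± 2.96). The subunits mt-Nd4l (0.613 ± 0.182) and mt-Nd3 (0.329 ± 0.214) were lowest. mt-Co1 alone supplied 46.3% to 57% of the summed mRNA FPKM across the 12 libraries.

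Neighbouring genes also share bases, so their reads cannot be fully told apart. mt-Atp8 and mt-Atp6 overlap by 43 bases, mt-Nd4l and mt-Nd4 by 7, and mt-Nd5 overlaps mt-Nd6 on the opposite strand by 14. No source used here states how strand was treated.

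**Figure D2:**
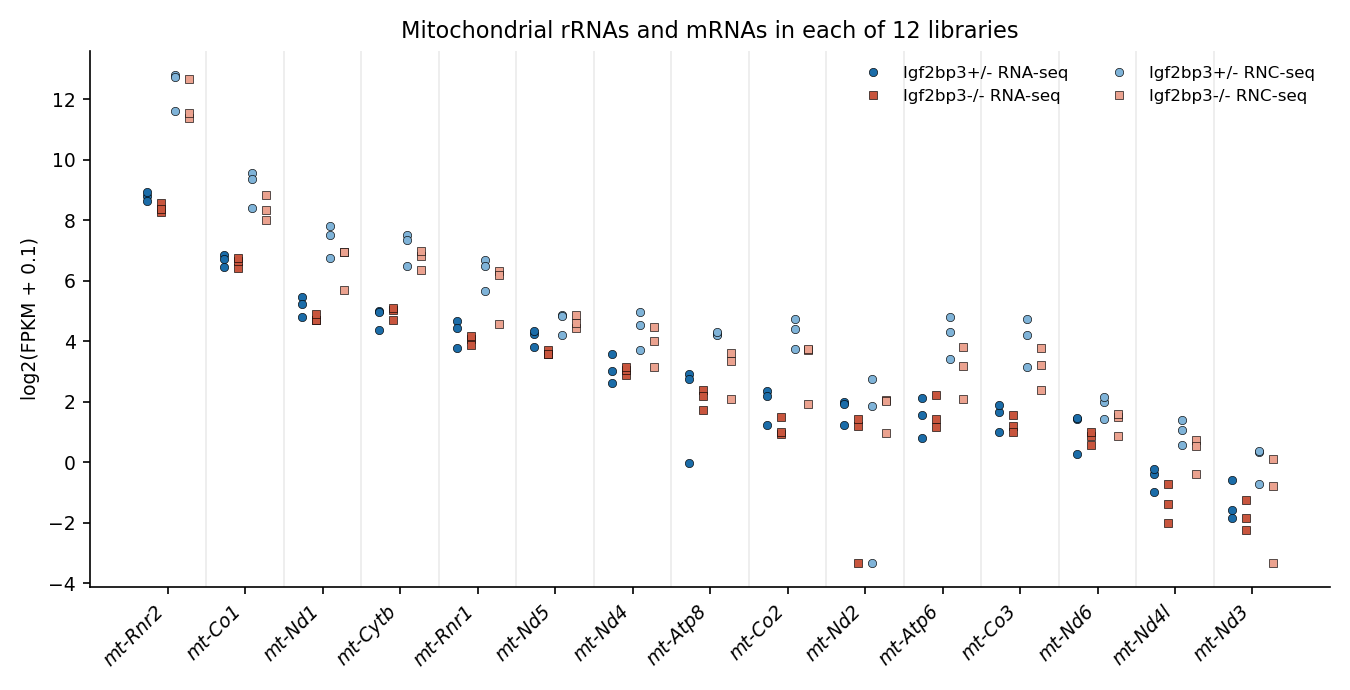
Log2(FPKM + 0.1) of the 13 mRNAs and 2 rRNAs in each of the 12 libraries (points), ordered by mean level in Igf2bp3+/- RNA-seq. mt-Rnr2 is highest in all libraries, with Igf2bp3+/- RNC-seq libraries reaching 7154 FPKM against at most 489 in RNA-seq.

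Both rRNAs were recovered more strongly in RNC-seq. mt-Rnr2 read 453, 489 and 403 FPKM in Igf2bp3+/- RNA-seq and 7154, 3128 and 6797 in RNC-seq. In Igf2bp3-/- the values were 308, 379 and 330 in RNA-seq and 2663, 3006 and 6514 in RNC-seq. In both genotypes all RNC-seq libraries lay above all RNA-seq libraries, with replicate 2 lowest in Igf2bp3+/- RNC-seq and replicate 3 highest in Igf2bp3-/- RNC-seq. The log2 difference was 3.58 ± 0.29 (SE, 11.9-fold, limma adjusted p = 9.23e-05) in Igf2bp3+/- and 3.47 ± 0.31 (11.1-fold, adjusted p = 0.00123) in Igf2bp3-/-. For mt-Rnr1 it was 1.98 ± 0.30 (adjusted p = 0.00126) and 1.65 ± 0.40 (adjusted p = 0.0204). The ratio of 16S to 12S FPKM lay at 17.7 to 29.2 in RNA-seq and 33.1 to 127 in RNC-seq. This ratio too concerns poly(A)-selected RNA and not total rRNA. The nuclear locus CT010467.1 had a log2 difference of 1.11 ± 0.19 in Igf2bp3+/- (adjusted p = 0.00206).

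Most mRNAs were likewise higher in RNC-seq. Of all genes tested, 17.3% were called higher and 26.3% lower in RNC-seq in Igf2bp3+/-, and 9.48% and 11.0% in Igf2bp3-/-. Against this, 10 of 13 mitochondrial mRNAs were called higher in Igf2bp3+/- and 8 of 13 in Igf2bp3-/-, and 0 were called lower. Since the mRNAs come from shared precursors, the 13 are not separate observations. Their median log2 differences were 2.20 and 1.67, beside -0.14 and -0.06 over all genes tested.

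The 3 complex IV subunits gave the most even result. mt-Co1 read 117, 106 and 87.7 FPKM in Igf2bp3+/- RNA-seq and 756, 343 and 657 in RNC-seq. In Igf2bp3-/- it read 85.0, 101 and 109 in RNA-seq and 328, 258 and 457 in RNC-seq. The assays did not overlap in either genotype. mt-Co1 rose by 2.43 ± 0.27 (log2, adjusted p = 0.000319) in Igf2bp3+/- and by 1.79 ± 0.22 (adjusted p = 0.00247) in Igf2bp3-/-. mt-Co2 rose by 2.37 ± 0.34 and 1.98 ± 0.44 (adjusted p = 0.000926 and 0.0155), and mt-Co3 by 2.51 ± 0.39 and 1.87 ± 0.33 (adjusted p = 0.0014 and 0.00702). With the nuclear copies added these differences became 2.37 and 1.80 for mt-Co2, and 2.45 and 1.75 for mt-Co3, and the calls were kept.

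mt-Cytb, the sole mitochondrial subunit of complex III, read 32.1, 31.4 and 20.8 FPKM in Igf2bp3+/- RNA-seq and 183, 90.7 and 165 in RNC-seq. In Igf2bp3-/- it read 25.9, 32.4 and 34.5, and 112, 82.8 and 128. The assays were again separate in each genotype, with log2 differences of 2.34 ± 0.28 (adjusted p = 0.000387) and 1.78 ± 0.20 (adjusted p = 0.00206).

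The 7 complex I subunits were less uniform. mt-Nd1, which carries part of the proton-pumping membrane arm, rose by 2.20 ± 0.28 (adjusted p = 0.000508) in Igf2bp3+/- and 1.77 ± 0.31 (adjusted p = 0.00683) in Igf2bp3-/-. mt-Nd4l rose by 1.53 ± 0.30 and 1.67 ± 0.41 (adjusted p = 0.00393 and 0.0213). mt-Nd4 passed the test in Igf2bp3+/- (1.34 ± 0.34, adjusted p = 0.0128) and not in Igf2bp3-/- (0.85 ± 0.30, adjusted p = 0.0725). The order was the other way round for mt-Nd5, at 0.50 ± 0.21 (adjusted p = 0.0837) and 1.00 ± 0.17 (adjusted p = 0.00652). These pairs are not shown to differ between genotypes, since the tests of the difference, given further on, called 0 members. mt-Nd3 passed in Igf2bp3+/- at 1.33 ± 0.43 (adjusted p = 0.0346) and had 0.44 ± 0.76 (adjusted p = 0.71) in Igf2bp3-/-, where RNC-seq replicate 2 listed it at 0.

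mt-Nd6, the only mRNA on the minus strand, was not called in either genotype. It read 2.58, 2.69 and 1.12 FPKM in Igf2bp3+/- RNA-seq and 3.89, 2.57 and 4.38 in RNC-seq, with overlap. Its log2 differences were 0.80 ± 0.35 (adjusted p = 0.0949) and 0.51 ± 0.26 (adjusted p = 0.189). mt-Nd2 could not be read in the same way, because it was listed at 0 in Igf2bp3-/- RNA-seq replicate 3 and Igf2bp3+/- RNC-seq replicate 1. Its other 10 libraries held 1.88 to 6.65 FPKM.

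The ATP synthase subunits mt-Atp6 and mt-Atp8 are encoded side by side. mt-Atp6 read 4.27, 2.89 and 1.64 FPKM in Igf2bp3+/- RNA-seq and 28.0, 10.5 and 19.7 in RNC-seq, a log2 difference of 2.68 ± 0.41 (adjusted p = 0.00122). In Igf2bp3-/- it read 2.13, 2.61 and 4.63 and 8.98, 4.17 and 14.0, and its 1.42 ± 0.42 (adjusted p = 0.0427) came with overlapping libraries. mt-Atp8 gave 2.37 ± 0.67 (adjusted p = 0.0202) and 0.92 ± 0.37 (adjusted p = 0.104). Adding the copy Gm10925 brought mt-Atp6 to 2.45 and 1.37.

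RNA-seq and RNC-seq libraries of a genotype came from divided extracts, but no source used here states that equal numbers mark 1 extract. With the replicate number as a block, 11 mRNAs and rRNAs were called in Igf2bp3+/-, where mt-Nd3 was lost (adjusted p = 0.0604). In Igf2bp3-/- 12 were called, where mt-Atp8 (0.021) and mt-Nd4 (0.0429) were gained. Without the block, in Igf2bp3+/-, 10 of the 12 called mRNAs and rRNAs held with any library left out, and mt-Atp8 and mt-Nd3 did not. The mt-Atp8 call was lost without RNC-seq replicate 1, 2 or 3 (adjusted p up to 0.0637), and the mt-Nd3 call without RNA-seq replicate 1 or 3 or RNC-seq replicate 1 or 3 (up to 0.112). In Igf2bp3-/- the number called ranged from 6 to 13 around 10. It was 6 without RNA-seq replicate 2, RNA-seq replicate 3, RNC-seq replicate 1 or RNC-seq replicate 3, and 13 without RNC-seq replicate 2, and mt-Rnr1, mt-Co2, mt-Atp6 and mt-Nd4l were the calls lost in 1 or more of these.

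**Figure D3:**
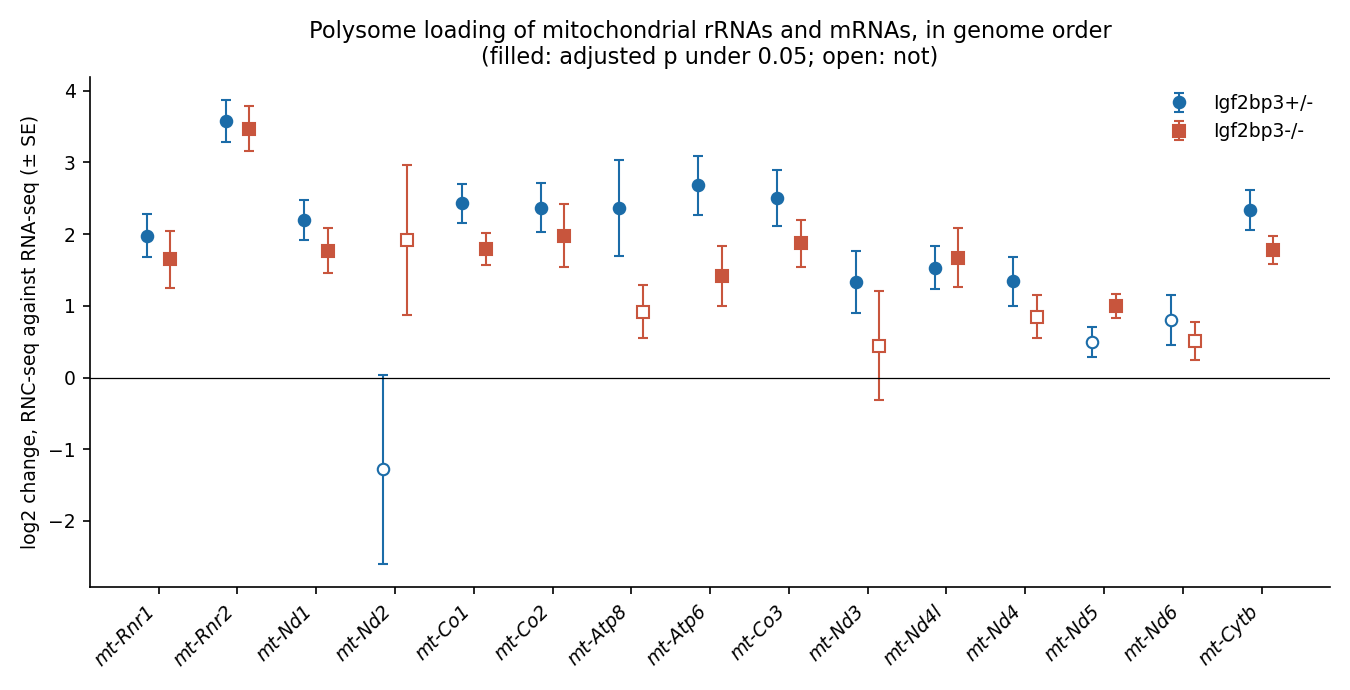
Log2 difference between RNC-seq and RNA-seq (bars: SE from limma, n = 3 against 3) for each mRNA and rRNA in both genotypes, with filled symbols for calls at an adjusted p of 0.05. mt-Rnr2 stands highest in both genotypes, at 3.58 and 3.47, and mt-Nd2 has the widest error.

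Most nuclear-encoded partners were called higher in RNC-seq as well. The 82 nuclear subunits of the respiratory complexes and ATP synthase tested had a median log2 difference of 1.13 in Igf2bp3+/- and 0.91 in Igf2bp3-/-. In Igf2bp3+/-, 63 were called higher in RNC-seq and 2 lower, beside 17.3% and 26.3% of all genes. The counts in Igf2bp3-/- were 49 and 2, beside 9.48% and 11.0%. The list of subunits, taken by symbol prefix, also took in the cytochrome c genes Cycs and Cyct. They are counted with the subunits throughout, but are not in the medians by complex. By complex, the medians of mitochondrial and nuclear subunits in Igf2bp3+/- were 1.33 and 1.25 for complex I and 2.43 and 1.27 for complex IV. For the ATP synthase they were 2.52 and 0.47, and in Igf2bp3-/- 1.17 and 0.51. The summed mitochondrial mRNA FPKM equalled 2.20% to 3.41% of the summed nuclear subunit FPKM in RNA-seq and 3.58% to 8.54% in RNC-seq. Of 78 mitochondrial ribosomal protein genes, 49 were called higher and 3 lower in Igf2bp3+/- (median 0.66), and 24 and 0 in Igf2bp3-/- (median 0.50). These counts stand beside the same shares of all genes. These lists were chosen with earlier results of the same data known, and whether they differ from the mitochondrial mRNAs was not tested.

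Between genotypes in RNA-seq, no mRNA or rRNA passed the test. Of all genes tested, 0.197% were called higher and 0.0590% lower in Igf2bp3-/-. On the log2(FPKM + 0.1) scale, 10 of 13 mRNAs had a lower mean in Igf2bp3-/-, as did 43.8% of all genes. The mRNAs had a median log2 difference of -0.27, beside 0.05 for all genes. An unadjusted p under 0.05 on the lower side was found for 4 of 13, and for 5.32% of all genes. Here and in RNC-seq and TE below, the 13 mRNAs come from shared precursors and are not separate observations. The median was -0.07 without Igf2bp3+/- replicate 2 and -0.64 without Igf2bp3+/- replicate 3. Of all genes, 8.68% had every Igf2bp3-/- library below every Igf2bp3+/- library, as did mt-Rnr2 and mt-Nd5. mt-Rnr2 had 453, 489 and 403 FPKM against 308, 379 and 330, a difference of -0.40 ± 0.11 (adjusted p = 0.185). mt-Nd5 had 19.0, 20.1 and 14.1 against 12.0, 13 and 11.9, a difference of -0.51 ± 0.14 (adjusted p = 0.19). For mt-Co1 (117, 106 and 87.7 against 85.0, 101 and 109) the genotypes overlapped.

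The nuclear respiratory subunits leaned the opposite way in RNA-seq. Of 82 tested, 80 had a higher mean in Igf2bp3-/- (median 0.28), as did 56.2% of all genes. An unadjusted p under 0.05 in that direction was found for 38 of them, and for 10.4% of all genes, and 0 passed the adjusted test. The summed mitochondrial mRNA FPKM as a percent of the nuclear sum was 3.41, 3.06 and 2.89 in Igf2bp3+/- and 2.20, 2.36 and 2.39 in Igf2bp3-/-, without overlap. In RNC-seq the same percentages were 8.13, 4.39 and 8.54 and 3.63, 3.58 and 4.66, with overlap. Within RNA-seq the mitochondrial mRNA sums themselves overlapped (251, 228 and 167 FPKM in Igf2bp3+/- against 173, 195 and 208 in Igf2bp3-/-). The nuclear sums did not (7376, 7448 and 5796 against 7886, 8282 and 8731). The lean was not particular to respiratory subunits. Of 78 mitochondrial ribosomal protein genes, 68 had a higher and 10 a lower mean in Igf2bp3-/- RNA-seq (median 0.30). On the higher side 34 had an unadjusted p under 0.05, and 0 passed the adjusted test.

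**Figure D4:**
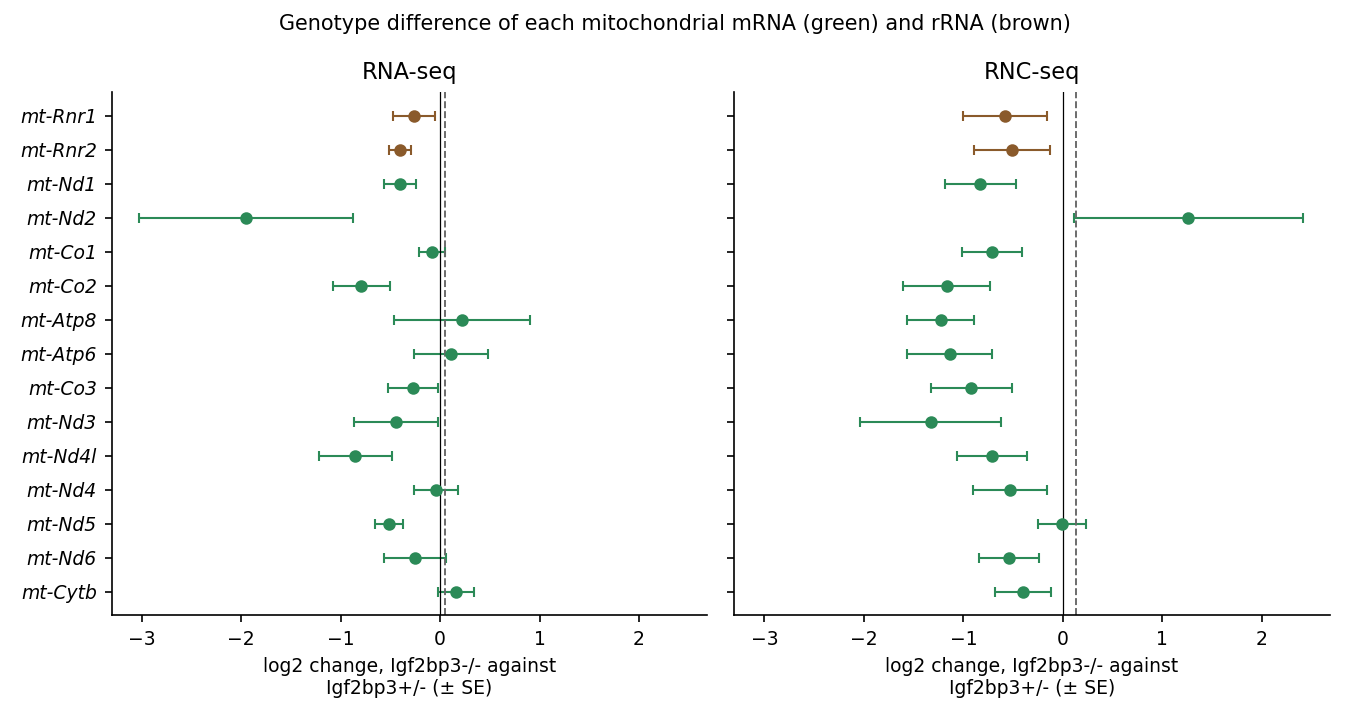
Log2 difference between Igf2bp3-/- and Igf2bp3+/- (bars: SE from limma, n = 3 against 3) for the mRNAs and rRNAs in RNA-seq and RNC-seq on a shared axis, where values below 0 mean lower in Igf2bp3-/-. The dashed line marks the median of all genes tested, none of the points passed an adjusted p of 0.05, and 12 of 13 mRNAs lie below 0 in RNC-seq.

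In RNC-seq, limma called 0 mRNAs and 0 rRNAs between genotypes, where 0.0787% of all genes were called higher and 0.0367% lower. The mean of log2(FPKM + 0.1) was lower in Igf2bp3-/- for 12 of 13 mRNAs and for 34.7% of all genes. The median differences were -0.71 and 0.13. An unadjusted p under 0.05 on the lower side was found for 6 of 13, and for 1.12% of all genes. The share over all genes is no measure of how unusual these counts are, as the 13 are not separate observations. The mRNA median was -0.41 without Igf2bp3-/- replicate 2, and ran from -1.06 to -0.41 with each library left out. mt-Atp8 was the mRNA without overlap, a pattern that 1.85% of all genes showed on the lower side. It read 19.0, 18.4 and 19.8 FPKM in Igf2bp3+/- and 10.2, 4.19 and 12.1 in Igf2bp3-/-, with replicate 2 lowest in the latter, a difference of -1.23 ± 0.34 (adjusted p = 0.587). mt-Nd1 read 227, 107 and 185 against 125, 51.8 and 124, and the control replicate 2 lay inside the knockout range. Replicate 2 held the lowest summed mRNA FPKM of each genotype in RNC-seq, at 631 and 453.

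The change in polysome loading between genotypes, tested as the interaction of genotype and assay (the study's translation efficiency, TE), passed the test for 0 members. Of all genes tested, 0.00543% were called higher and 0% lower. The mRNAs had a median of -0.48 beside 0.06 for all genes, with 10 of 13 and 44.4% of all genes below 0. No mRNA had an unadjusted p under 0.05, against 5.54% of all genes on the higher and 1.58% on the lower side. The mRNA median was -0.12 without Igf2bp3-/- RNC-seq replicate 2, -0.83 without Igf2bp3+/- RNC-seq replicate 2, -0.22 without replicate 1 of that group, and -0.26 when Igf2bp3+/- RNA-seq replicate 3 was left out. mt-Atp8 had -1.45 ± 0.85 and mt-Atp6 -1.25. The nuclear respiratory subunits had a median of -0.24. This comparison uses the same 12 libraries as the others and adds no separate evidence.

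The tRNAs are short against sequenced fragments, and per the labels the libraries were made from poly(A)-selected RNA, so their FPKM are not levels of mature tRNA. A read here may come from a precursor, a neighbouring gene or a nuclear copy. In each library 3 to 15 of the 18 tRNAs were listed at 0, and mt-Tl2 was at 0 in all 12. The zeros ran along the genome. In Igf2bp3-/- RNA-seq replicate 3, 7 adjoining members from mt-Tm to mt-Ty, mt-Nd2 among them, were listed at 0. In Igf2bp3+/- RNC-seq replicate 1, 8 members from mt-Tq to mt-Ty were at 0, and in RNC-seq replicate 2 of both genotypes 5 members from mt-Tw to mt-Ty. The flanking mt-Co1 was at 756 FPKM in Igf2bp3+/- RNC-seq replicate 1 and at 343 and 258 in the replicate 2 libraries. Why these runs were listed at 0 was not tested.

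mt-Tl1, which lies between mt-Rnr2 and mt-Nd1, was the only member called between genotypes. It read 20.1, 26.0 and 23.4 FPKM in Igf2bp3+/- RNA-seq and 3.33, 2.35 and 0.792 in Igf2bp3-/- RNA-seq. In RNC-seq it read 3.88, 3.50 and 2.94, and 0.625, 3.22 and 4.25. The RNA-seq genotypes were far apart while those of RNC-seq overlapped. In RNA-seq it was lower in Igf2bp3-/- by a log2 difference of -3.56 ± 0.42 (11.8-fold on the log2(FPKM + 0.1) scale, adjusted p = 0.0184). The adjusted p was 0.0523, 0.0652 and 0.0732 without Igf2bp3+/- replicate 1, Igf2bp3+/- replicate 2 and Igf2bp3-/- replicate 2, so the call is lost without any of these. Its RNC-seq difference was -0.69 ± 0.53 (adjusted p = 0.836), and the interaction was 2.88 ± 0.79 (adjusted p = 0.686).

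The whole mt-Tl1 gene is given next, with capitals for the bases that align to Cep295 and lower case for the rest (chrM:2676-2750, plus strand).
mt-Tl1, whole: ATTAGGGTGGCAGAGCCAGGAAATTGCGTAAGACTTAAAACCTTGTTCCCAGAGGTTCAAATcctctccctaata

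The other tRNAs with a counterpart in Cep295 showed the same direction in RNA-seq. mt-Tn, for asparagine, read 2.64, 4.46 and 1.67 FPKM in Igf2bp3+/- and 0.533, 0.711 and 0 in Igf2bp3-/-. mt-Tc, for cysteine, read 1.76, 4.13 and 2.24 against 0.258, 0.793 and 0. mt-Ta, for alanine, read 2.52, 3.99 and 1.04 against 0.728, 0.689 and 0.
In none of these did the genotypes overlap, and the same held for mt-Ty, for tyrosine, at 1.77, 2.85 and 2.11 against 0.426, 1.06 and 0. None of these 4 passed the adjusted test (adjusted p = 0.167, 0.157, 0.219 and 0.201). All 5 tRNAs with a counterpart were thus separated, as were 8.68% of all genes on the lower side, with log2 differences from -3.56 to -2.51. mt-Ta, mt-Tn, mt-Tc and mt-Ty adjoin on the genome and were at 0 together in Igf2bp3-/- replicate 3, so they are not separate observations. Of the 8 tested tRNAs without a counterpart, 1 was separated, mt-Tw for tryptophan, and their differences ran from -1.65 to 0.43. Their mean FPKM in Igf2bp3+/- RNA-seq ran from 0.0861 to 0.945, against 2.24 to 23.2 for the 5 with a counterpart. mt-Tv, mt-Tq, mt-Tg, mt-Tr and mt-Tp were listed at 0 in 1 or more of those libraries, so lower separation was closed to them. The tRNAs with and without a counterpart therefore cannot be compared by this count. Why the tRNAs differ in this was not tested. mt-Tw read 1.23, 0.705 and 0.897 against 0.584, 0.404 and 0, and lies beside mt-Ta on the genome. mt-Tf, mt-Ti, mt-Ts1, mt-Tl2 and mt-Tt did not pass the filter on low values. mt-Ts1, which shares 3 bases with mt-Co1, was above 0 only in RNC-seq replicate 3 of each genotype, at 3.18 and 1.43 FPKM. In RNC-seq, 8 tRNAs were tested between genotypes and limma called 0, beside 0.0787% of all genes called higher and 0.0367% lower. Among the 8, mt-Tp, for proline, read 0.164, 0.484 and 0.175 FPKM in Igf2bp3+/- and 0.118, 0 and 0 in Igf2bp3-/-. It passed the filter on low values through Igf2bp3+/- alone (mean 0.274 against 0.0393), so no test is given for it.

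Cep295 itself read 14.9, 17.6 and 17.5 FPKM in Igf2bp3+/- RNA-seq and 14.4, 13.3 and 12.9 in Igf2bp3-/- RNA-seq. In RNC-seq it read 2.52, 2.91 and 3.11, and 3.54, 6.39 and 2.55. The RNA-seq genotypes did not overlap, with a difference of -0.29 ± 0.11 (adjusted p = 0.26). Its polysome loading was -2.51 ± 0.15 in Igf2bp3+/- (adjusted p = 5.27e-05) and -1.78 ± 0.30 in Igf2bp3-/- (adjusted p = 0.00575), below 0 where most mitochondrial mRNAs were above it. Whether reads from Cep295 enter the tRNA values was not tested.

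In Igf2bp3+/-, several tRNAs were lower in RNC-seq than in RNA-seq. mt-Tl1 had a difference of -2.72 ± 0.16 (adjusted p = 5.27e-05) and mt-Tc, at 0, 0 and 0.712 FPKM in RNC-seq, of -3.72 ± 0.76 (adjusted p = 0.00501). mt-Ta, mt-Tn and mt-Tw were listed at 0 in all 3 RNC-seq libraries, and passed the filter through RNA-seq alone, so neither a fold nor a test is given for them. mt-Te, for glutamate, was higher in RNC-seq at 0.716, 0.411 and 0.743 FPKM against 0.237, 0.191 and 0.360 (0.99 ± 0.32, adjusted p = 0.0367). In Igf2bp3-/-, mt-Tq, for glutamine, read 0.271, 0.254 and 0.278 FPKM in RNA-seq and was listed at 0 in all RNC-seq libraries, and no test is given for it either. The mt-Te call was lost without RNA-seq replicate 1 or 2 or RNC-seq replicate 1 or 3 (adjusted p up to 0.118). With the replicate number as a block, mt-Ty was also called lower in Igf2bp3+/- RNC-seq (adjusted p = 0.0316). In Igf2bp3-/- mt-Tl1 had 0.16 ± 0.67 (adjusted p = 0.886).

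**Figure D5:**
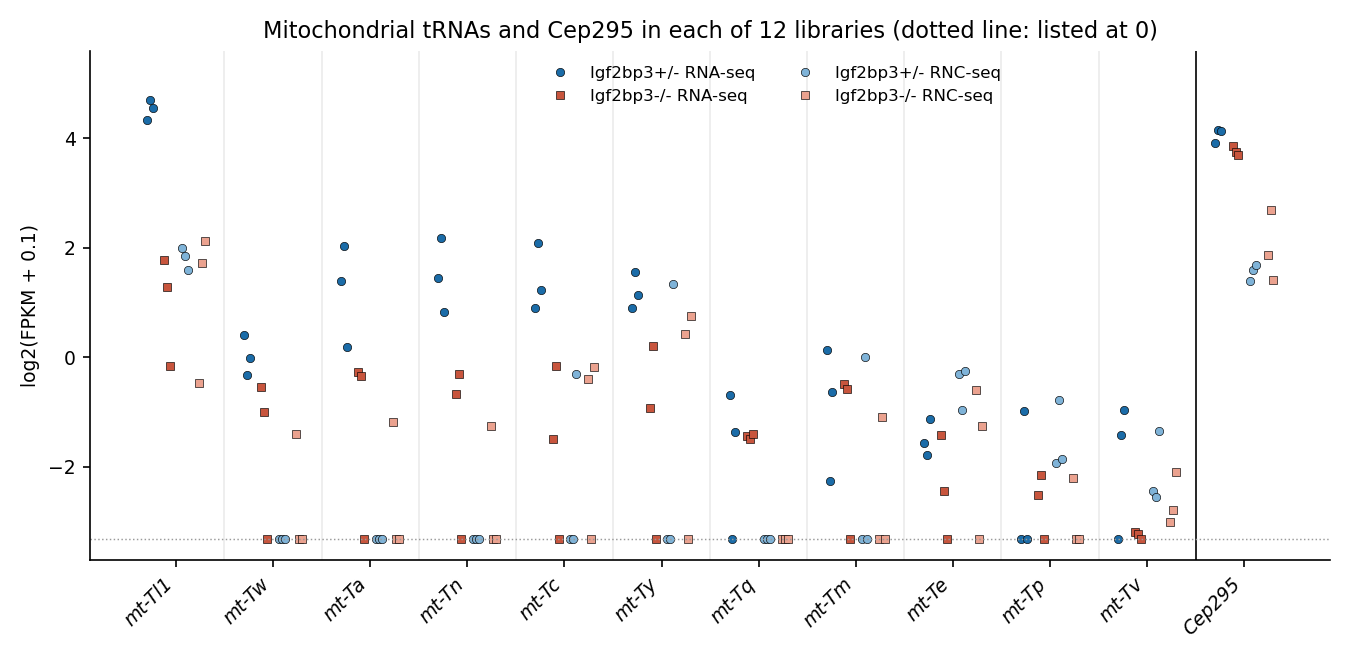
Log2(FPKM + 0.1) of 11 mitochondrial tRNAs and of Cep295 in each of the 12 libraries, with values listed at 0 on the dotted line. mt-Tl1, mt-Tw, mt-Ta, mt-Tn, mt-Tc and mt-Ty have all Igf2bp3+/- RNA-seq points above all Igf2bp3-/- RNA-seq points. Cep295 shows the same order at a smaller distance, and mt-Tw has no counterpart in it.

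Nuclear genes that maintain, transcribe, process and translate the mitochondrial genome were called in both directions for loading. Of 80 tested in Igf2bp3+/-, 9 were called higher and 8 lower (median -0.01), beside 17.3% and 26.3% of all genes. Of 79 in Igf2bp3-/-, 0 were called higher and 6 lower (median -0.05), beside 9.48% and 11.0%. The roles differed in their counts. Of 10 transcription genes, 9 had a higher mean in Igf2bp3+/- RNC-seq, 5 were called higher and 0 lower (median 0.63). In Igf2bp3-/- 8 of the 10 had a higher mean and 0 were called (median 0.36). Of 27 translation genes, 2 were called higher and 2 lower in Igf2bp3+/- (median -0.04). Limma called 0 of them between genotypes in RNA-seq, RNC-seq or TE. Tfam, which packages mitochondrial DNA and starts its transcription, had mean FPKM of 63.4 and 62.1 in Igf2bp3+/- and Igf2bp3-/- RNA-seq and of 100 and 80.4 in RNC-seq. Slirp, which stabilises mitochondrial mRNAs with Lrpprc, had 11.3 and 15.0, and 37.8 and 36.3. Polg, the mitochondrial DNA polymerase, had 19.5 and 14.4, and 6.73 and 7.52. Lars2, the mitochondrial leucyl-tRNA synthetase, had 111 and 65.7 in RNA-seq and 107 and 106 in RNC-seq. Its RNA-seq difference of -0.80 ± 0.19 had an adjusted p of 0.163. The other translation genes with the highest means went the other way in RNA-seq, Fars2 at 42.9 and 51.6 and Mrrf at 14.9 and 18.3. Of the 27 translation genes, 20 had a higher and 7 a lower mean in Igf2bp3-/- RNA-seq (median 0.08, beside 0.05 over all genes).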

How the data were processed

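Per the labels and the study's methods, round spermatid RNA was poly(A)-selected, and reads were trimmed with Trim Galore 0.6.6, mapped with HISAT2 to GRCm38 (mm10) and quantified as FPKM with StringTie 2.1.7 by the authors. The annotation release, strand setting and handling of reads with several positions are not given in the sources used here, and the labels and methods describe different kits and instruments. Depth is unknown beyond the relative values given.

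From the deposited FPKM of 28668 symbols, 25 turned into dates were left out (0.0995% of summed FPKM). Of the 28643 kept, 27860 matched GENCODE M21. The test was limma-trend (limma 3.58.1, R 4.3.3) on log2(FPKM + 0.1) for genes with a mean FPKM over 0.1 (in both assays for TE), two-sided, Benjamini-Hochberg adjusted over all genes tested, limit 0.05, in 5 comparisons. The pseudocount draws the fold changes of low genes towards 0. Each genotype or loading comparison used the 6 libraries it concerns, and TE used all 12. Nuclear copies were found with blastn 2.17.0 (megablast mode, word size 16, E-value up to 1e-05) on the GENCODE M21 transcripts. Those listed as copies had at least 95% identity over 50% of a member. The Cep295 stretches came from a second, more sensitive search of the same transcripts. It ran in blastn mode with no word size set and the same E-value limit. Its matches in other genes are not given here, so tRNAs without a counterpart are those without one in Cep295. The fit was tested on simulated data. "Separate" or "without overlap" means that all 3 libraries of a group lie on 1 side of the other group's. Counts of genes with a higher or lower mean refer to the mean of log2(FPKM + 0.1). The named genes were all mRNAs and rRNAs, the tRNAs past the limit or among the 5 highest means, and, per role of the nuclear list, the 3 highest or called genes, of which a few are printed. Members and lists were chosen with earlier results of these data known. Alternatives were other pseudocounts, filters, scalings, trends and sample sets, a replicate block, and each library left out.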

Additional observations from a re-analysis of the deposited data

How the results depend on the processing

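Under the other settings run, the direction of the median mRNA difference held in all 5 comparisons: it ranged from -0.41 to -0.19 in RNA-seq, -0.89 to -0.50 in RNC-seq and -0.61 to -0.43 in TE (-0.64 to -0.07, -1.06 to -0.41 and -0.83 to -0.12 with each library left out), and centring each library, which takes out the all-gene median of 0.13 in RNC-seq, gave -0.83. The Igf2bp3-/- loading median was 0.95 with a pseudocount of 1, and the Igf2bp3+/- one ran from 1.42 to 2.40 with each library left out, 1.42 being without RNA-seq replicate 3. The mRNAs and rRNAs called for loading in Igf2bp3-/- ran from 6 to 13 with each library left out. The tRNAs called lower in RNA-seq ran from 0 to 1, and were 0 without the intensity trend (mt-Tl1 adjusted p = 0.0849) and with the replicate block (0.0771). The tRNAs called higher for loading in Igf2bp3+/- ran from 0 to 1, and were 0 without a filter, with a mean over 1, with libraries rescaled without mitochondrial genes and CT010467.1, and with all 12 libraries in the fit. No range is given for the tRNAs called lower for loading in Igf2bp3-/-, where the call was mt-Tq, listed at 0 in all RNC-seq libraries.

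Deviations of same-numbered libraries from their group means correlated at -0.104 to 0.241. Between the assays the values were 0.205, -0.104 and 0.198 in Igf2bp3+/- and -0.0513, 0.165 and 0.126 in Igf2bp3-/-, not all over 0.1, so the pairing of extracts by number was not settled and the fit without the block was kept. With the replicate block, the mRNAs and rRNAs called for loading were 11 in Igf2bp3+/- and 12 in Igf2bp3-/-.

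The mean share of the members in RNA-seq was 0.153% in Igf2bp3+/- and 0.112% in Igf2bp3-/-. It was 0.171% and 0.121% with CT010467.1 left out of the total, and 0.0913% and 0.0707% with FPKM multiplied by transcript length.

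Of 2077 single-gene comparisons under other settings, 48 lost the call, 24 gained it and 9 reversed, each with 1 library left out. These counts include the loading of mt-Ta, mt-Tn, mt-Tw and mt-Tq, for which no test is given above. Leaving out each library in turn, the RNA-seq differences ran from -0.27 to 0.21 for mt-Nd4 (0.21 without Igf2bp3+/- replicate 1), from -0.43 to 0.89 for mt-Tq (-0.43 without Igf2bp3+/- replicate 2), from -0.74 to 0.73 for mt-Atp8 and from -0.045 to 0.28 for mt-Cytb (the last 2 lowest without Igf2bp3+/- replicate 3). The RNC-seq differences ran from -0.62 (without Igf2bp3+/- replicate 1) to 2.42 for mt-Nd2 and from -1.18 to 0.11 (without Igf2bp3-/- replicate 1) for mt-Tl1. Loading in Igf2bp3+/- ran from -2.45 to 0.59 (without RNC-seq replicate 1) for mt-Nd2, and TE from -0.64 to 0.24 for mt-Rnr1 and from -1.61 to 0.11 for mt-Nd3 (both highest without Igf2bp3-/- RNC-seq replicate 2). The cause of these changes was not tested. Besides mt-Tl1, the block changed the member calls of loading for mt-Nd3 (adjusted p = 0.0604, lost) and mt-Ty (0.0316, gained) in Igf2bp3+/-, and for mt-Atp8 (0.021, gained) and mt-Nd4 (0.0429, gained) in Igf2bp3-/-, and no other.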
